A study of Mus musculus with 6 samples.

Results

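The genes described here are 10 that carry thyroid hormone signalling inside a cell: the receptors Thra and Thrb, their partners Rxra and Rxrb, the coregulators Ncor1, Ncoa1 and Med1, the response gene Klf9, and the membrane transporters Slc16a10 and Slco4a1. They were chosen by symbol and by function from a table of 54532 genes, and all 10 have a row in it. RNA sequencing was done on CD11b-positive bone marrow cells, isolated from tibias of mice 12 weeks old with a magnetic positive selection kit. CD11b is an integrin chain carried by neutrophils, monocytes and macrophages, the lineage from which osteoclasts form. The wild-type group, Tshr+/+, and the mutant group, titled Tshr-/-, had 3 libraries each, numbered 1 to 3. A genotype label of the mutant libraries reads Tshr knockdown, which goes against the title, and a treatment label common to all 6 libraries reads osteoclast differentiation. The labels name no allele, strain, sex, culture step or hormone level, and each number was read as a single mouse.

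Thyroid hormone enters cells through transporters of the monocarboxylate, organic anion and amino acid carrier families. In the nucleus it binds receptors that sit on DNA, mostly paired with a retinoid X receptor. Without hormone the receptor holds a corepressor complex built on NCOR proteins, and with hormone it exchanges that complex for p160 coactivators such as NCOA1 and for Mediator, which MED1 contacts. Tshr encodes the receptor for thyroid-stimulating hormone, the pituitary signal that drives the thyroid gland. The title of the study names protection from osteoporosis by that hormone through AMPK signalling in osteoclasts, and the comparison of genotypes here asks which of the 10 genes differed between the groups.

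The libraries held 14698126 to 17976477 fragments assigned to genes. Tshr itself stood at 0.537, 0.552 and 0.405 FPKM in wild-type libraries 1 to 3. The mutant libraries, by their labels, had 0.414, 0.297 and 0.00825 FPKM. FPKM are fragments per kilobase of gene, scaled to the size of the library. Only the library labelled Tshr-/- 3 was thus near 0, and the group means were not separated by the exact permutation test (two-sided p = 0.2; 3 against 3 libraries cannot go below 0.1). The altered stretch of Tshr is unknown here, so every direction below is that of the labels. Itgam, the gene of CD11b, had 87.4 to 134 FPKM. The summed level of 8 B and plasma cell markers was 393 to 693 FPKM in Tshr+/+ and 260 to 456 FPKM in Tshr-/-. Igkc, an immunoglobulin light chain gene, made up most of that sum, and Ighm of the same list went the other way, with 49.6 to 82.2 and 74.9 to 106 FPKM. The sum of 9 resident macrophage markers was 261 to 338 and 188 to 267 FPKM. Apoe, the most abundant of them, had 129 to 179 and 82.6 to 106 FPKM. It was the only 1 of the 9 whose groups did not overlap (6.77% of all genes tested), and 8 were on the lower side and 1 on the higher. The sum of 8 T and NK cell markers was 62.7 to 78.7 and 76.8 to 98.2 FPKM, mostly Nkg7, while the T cell genes Cd3e, Cd3g, Trac and Cd8a had at most 0.387 FPKM. None of these markers was at 0 in all 6 libraries. Their part in the values below was not tested, and in bulk RNA fewer cells of a type cannot be told apart from less RNA per cell. The Y-linked gene Ddx3y had 16.2 to 27.4 FPKM across the 6 libraries and Xist at most 0.00553 FPKM, the pattern of male mice. The libraries numbered 3 stood apart in both genotypes: 24.2% of 10913 genes tested had their lowest value of each genotype in the library numbered 3, and 22% had their highest there. These shares were not computed for the other numbers.

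The 10 genes spanned a wide range of levels, and the order was set mostly by the gene, not by the genotype. Ncor1, Slco4a1 and Rxrb led with means over the 6 libraries of 26.5, 24.1 and 23.0 FPKM. Ncoa1, Rxra, Klf9, Med1, Slc16a10 and Thra followed with 8.74, 7.10, 6.82, 5.04, 4.29 and 3.39 FPKM, and Thrb was last with 0.0175 FPKM. The order has 2 breaks that no library crossed. The lowest Rxrb value (20.6 FPKM) lay above the highest Ncoa1 value (9.44 FPKM), and the lowest Thra value (3.02 FPKM) lay above the highest Thrb value (0.0504 FPKM). All other neighbours in the order had overlapping ranges. Among the genes tested, the mean level of Ncor1 stood at percentile 83.3, that of Rxra at 53.9 and that of Thra at 33.1.

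**Figure D1:**
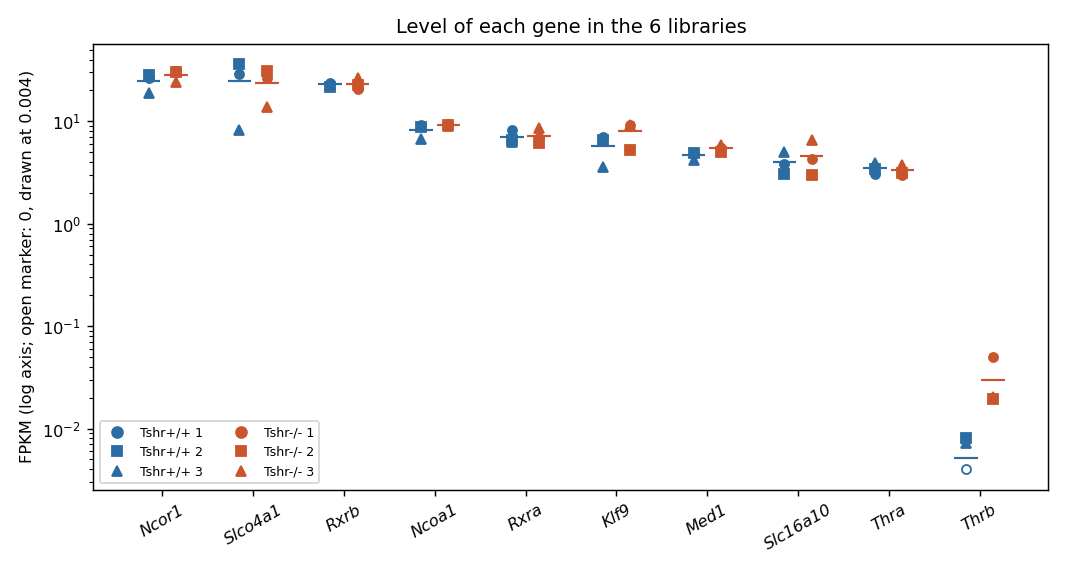
FPKM (log axis) of the 10 genes in each of the 6 libraries, with Tshr+/+ in blue and Tshr-/- in orange, the number in the title as the marker shape and a line at the group mean. Thrb lies far below the other 9 genes, and the triangles of Slco4a1 (the libraries numbered 3) lie below its other values.

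No member passed the test between genotypes. Of the 10 genes, 9 had at least 1 FPKM in at least 3 libraries and were tested; Thrb did not reach that level. limma called 0 of these 9 at an adjusted p under 0.05, and 0 had an unadjusted p under 0.05. Over the whole table limma called 0 of 10913 genes (percent called 0, with 317 or 2.9% at an unadjusted p under 0.05), and its voom method on whole fragments also called 0. The log2 fold change was above 0 for 8 of the 9 members, with a median of 0.14, while it was above 0 for 47.1% of all genes tested, with a median of -0.01. With FPKM rescaled to equal totals that share of all genes was 59.0%. The members' median ran from 0.02 to 0.21 with 1 library left out. The lowest value was that without Tshr+/+ 3, and without both libraries numbered 3 it was 0.03, with 5 members above and 4 below 0. The groups did not overlap for 1 of the 9 members, Med1, against 6.77% of all genes tested.

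**Figure D2:**
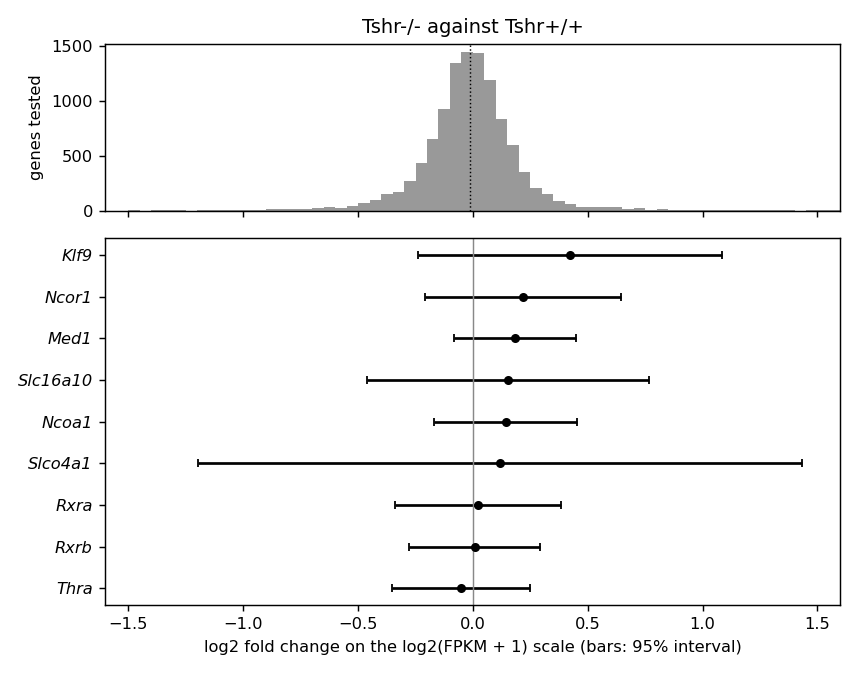
Upper panel: number of tested genes by log2 fold change of Tshr-/- against Tshr+/+, with a dotted line at their median of -0.01; genes beyond the axis are not drawn. Lower panel: the 9 tested members with their 95% intervals from limma, each of which includes 0; the widest is that of Slco4a1, from -1.20 to 1.43.

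Thra was the only thyroid hormone receptor gene present at more than a few fragments. Thra (ENSMUSG00000058756, chromosome 11, 98740638 to 98769006 of GRCm38, plus strand) encodes the receptor form that prevails in bone, heart and brain. The Tshr+/+ libraries held 3.08, 3.43 and 3.89 FPKM of Thra, and their mutant counterparts held 3.02, 3.15 and 3.75 FPKM. The groups overlapped, and in each genotype the library numbered 3 was highest. Wild-type Thra averaged 3.47 ± 0.407 FPKM and mutant Thra 3.31 ± 0.392 FPKM (SD, n = 3). The log2 fold change on the log2(FPKM + 1) scale was -0.05 ± 0.13 (SE) with a 95% interval from -0.35 to 0.25 and a limma adjusted p of 0.9997. The interval corresponds to between 0.784 and 1.19 times the wild-type level on that scale. Within each number the mutant library was lower, by 0.02 to 0.09 on the log2 scale, which held for 14.5% of all genes tested. Without Tshr+/+ 3 the direction turned to 0.016.

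Thra shares 263 exonic bases with Nr1d1 on the opposite strand, which encodes the clock repressor REV-ERB alpha. No source says whether the counting used strand, so fragments of that stretch cannot be assigned to either gene. Thra had 204 to 349 fragments per library, and Nr1d1 had 24 to 142. Nr1d1 had 2.19, 2.79 and 0.422 FPKM in Tshr+/+ and 1.23, 1.07 and 0.50 FPKM in Tshr-/-. It was lowest in the libraries numbered 3, where Thra was highest. Of the 9 annotated Thra transcripts 4 are coding, and they include a splice form that does not bind hormone; the table gives 1 value per gene and does not separate them.

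Thrb (ENSMUSG00000021779, chromosome 14, 17660261 to 18038090, plus strand), which encodes the receptor form that prevails in liver and pituitary, was near the limit of detection. The Tshr+/+ libraries held 0, 1 and 1 fragments, and the libraries labelled Tshr-/- 6, 2 and 3. For the library with 0 fragments, 3 fragments correspond to a limit of 0.0238 FPKM. The groups did not overlap, averaging 0.00515 ± 0.00448 FPKM in wild-type and 0.0299 ± 0.0177 FPKM in mutant libraries (SD, n = 3; exact two-sided permutation test, p = 0.1, the smallest that 3 against 3 libraries allow). Pooled by genotype, 11 against 2 fragments give a ratio of 5.70 with an exact 95% interval of 1.24 to 52.9, which covers counting error only and not the spread between mice. Over all 6 libraries Thra held 199 times the Thrb level per length, from 1613 against 13 fragments (exact 95% interval 116 to 375).

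Rxrb outweighed Rxra about equally in every library. The RXR proteins are the partners with which thyroid hormone receptors bind DNA, and they also pair with vitamin D, retinoic acid and lipid receptors. Rxra (ENSMUSG00000015846, chromosome 2, 27676440 to 27762957, plus strand) had 8.23, 6.56 and 6.30 FPKM in Tshr+/+ and 6.79, 6.18 and 8.51 FPKM in Tshr-/-. Rxrb (ENSMUSG00000039656, chromosome 17, 34031812 to 34038393, plus strand) had 23.6, 21.7 and 23.4 FPKM in Tshr+/+ and 20.6, 22.4 and 26.4 FPKM in Tshr-/-. Both had overlapping groups and their highest value in the library labelled Tshr-/- 3. The log2 fold changes were 0.02 ± 0.15 (SE) for Rxra and 0.007 ± 0.12 (SE) for Rxrb, each at a limma adjusted p of 0.9997. Their 95% intervals ran from -0.34 to 0.38 and from -0.28 to 0.29. Both directions turned when the library labelled Tshr-/- 3 was left out, to -0.095 for Rxra and -0.088 for Rxrb. They also turned without Tshr+/+ 2, to -0.018 and -0.030, and that of Rxra without Tshr+/+ 3, to -0.044. The ratio of Rxrb to Rxra lay between 2.87 and 3.71 in the 6 libraries, with means of 3.30 ± 0.419 in Tshr+/+ and 3.25 ± 0.331 in Tshr-/- (SD, n = 3). The third gene of the family, Rxrg, was listed at 0 in all 6 libraries.

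The DNA around the start sites of these genes was searched for the half-site that both receptor classes read, AGGTCA, on either strand. RefSeq start windows of GRCm38.p6, from 250 bases before to 50 bases after a start, were at hand for 9 of the 10 genes, 14 windows in all; Thra had none. The half-site stood in 3 of the 14 windows (21.4%), against 16.3% of 32851 windows of all genes. The half-site repeated in the same direction after a gap of 4 bases, the classic thyroid hormone response element, stood in 0 of the 14 and in 0.0152% of all windows. The stretches before the start that held a half-site are shown with it in capitals so that the counted letters can be seen; a share this near the background says nothing particular of these genes. Thrb is shown at chr14:17660710-17660891, an internal Rxra start at chr2:27709042-27709291 and an internal Slco4a1 start at chr2:180460728-180460977. Klf9 is shown at chr19:23140976-23141225 as the response gene without a match. All 4 are on the plus strand, 5′ to 3′, and only bases outside annotated exons are printed.
Thrb: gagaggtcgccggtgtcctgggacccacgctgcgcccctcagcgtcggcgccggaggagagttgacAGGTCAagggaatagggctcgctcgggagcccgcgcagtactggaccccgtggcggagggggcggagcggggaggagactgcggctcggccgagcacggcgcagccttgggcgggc
Rxra: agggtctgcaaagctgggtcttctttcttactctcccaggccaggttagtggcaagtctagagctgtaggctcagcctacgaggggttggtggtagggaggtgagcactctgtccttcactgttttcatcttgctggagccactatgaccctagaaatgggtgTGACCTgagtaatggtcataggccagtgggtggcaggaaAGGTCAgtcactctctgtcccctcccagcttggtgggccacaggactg
Slco4a1: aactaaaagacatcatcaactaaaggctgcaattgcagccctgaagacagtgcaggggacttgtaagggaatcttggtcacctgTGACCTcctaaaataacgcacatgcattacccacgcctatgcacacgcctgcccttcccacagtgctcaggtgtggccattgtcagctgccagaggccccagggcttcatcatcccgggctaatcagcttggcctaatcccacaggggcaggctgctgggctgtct
Klf9: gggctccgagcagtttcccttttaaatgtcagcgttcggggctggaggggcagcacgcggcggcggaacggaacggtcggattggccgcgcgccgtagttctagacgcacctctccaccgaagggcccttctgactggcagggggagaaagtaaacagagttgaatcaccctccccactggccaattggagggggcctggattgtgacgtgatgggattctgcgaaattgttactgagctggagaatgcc
TGACCT is the half-site read on the opposite strand. A match describes letters and not a bound site, and these windows do not reach distal elements.

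The corepressor gene Ncor1 exceeded the coactivator gene Ncoa1 in all 6 libraries. NCOR1 is the scaffold that brings the deacetylase HDAC3 to the receptor without hormone, and NCOA1, also called SRC-1, recruits acetyltransferases once hormone is bound. Ncor1 (ENSMUSG00000018501, chromosome 11, 62316426 to 62458541, minus strand) had 26.5, 28.2 and 18.8 FPKM in Tshr+/+ and 30.7, 30.4 and 24.1 FPKM in Tshr-/-. Ncoa1 (ENSMUSG00000020647, chromosome 12, 4247362 to 4477182, minus strand) had 9.27, 8.84 and 6.78 FPKM in Tshr+/+ and 9.44, 9.11 and 9.02 FPKM in Tshr-/-. Both were lowest in the library numbered 3 of each genotype, and their groups overlapped. Within each number the mutant library held more of both genes, and the same was true of Med1; 12.2% of all genes tested shared that pattern.

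The log2 fold change was 0.22 ± 0.18 (SE) for Ncor1, with a 95% interval from -0.21 to 0.65. For Ncoa1 it was 0.14 ± 0.13 (SE), with an interval from -0.17 to 0.45. Neither passed (limma adjusted p = 0.9997 for each). With 1 library left out the values ran from 0.046 to 0.33 for Ncor1 and from 0.020 to 0.22 for Ncoa1, lowest without Tshr+/+ 3 in both. The ratio of Ncor1 to Ncoa1 was 2.94 ± 0.223 in Tshr+/+ and 3.09 ± 0.358 in Tshr-/- (SD, n = 3), and it lay between 2.68 and 3.33 in the 6 libraries. Ncor1 shares 82 exonic bases with Pigl and 1 with Ttc19, and Ncoa1 shares 68 with the antisense gene 4921501I09Rik. All of these lie on the opposite strand.

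**Figure D3:**
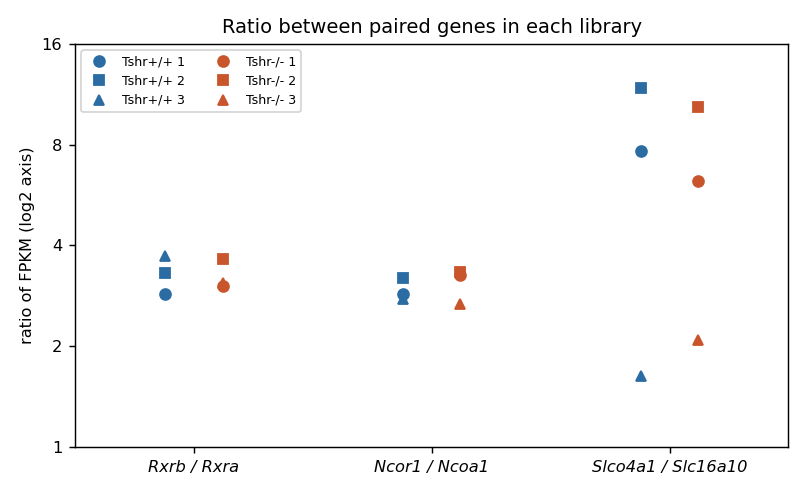
Ratio of FPKM between paired genes in each library (log2 axis), with Tshr+/+ in blue, Tshr-/- in orange and the number in the title as the marker shape. Rxrb to Rxra and Ncor1 to Ncoa1 stay within narrow ranges, while Slco4a1 to Slc16a10 runs from 1.63 to 11.8 and is lowest in the libraries numbered 3.

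Med1 was the single tested member whose groups did not overlap. MED1 is the Mediator subunit that liganded nuclear receptors contact. Med1 (ENSMUSG00000018160, chromosome 11, 98152154 to 98193293, minus strand) had 4.85, 4.92 and 4.20 FPKM in Tshr+/+ and 5.48, 4.98 and 5.82 FPKM in Tshr-/-. The highest wild-type value (4.92 FPKM) and the lowest mutant value (4.98 FPKM), both in libraries numbered 2, were nearly equal. The means were 4.66 ± 0.398 FPKM and 5.43 ± 0.424 FPKM (SD, n = 3), and the log2 fold change of 0.18 ± 0.11 (SE) did not pass (limma unadjusted p = 0.143, adjusted p = 0.9997). Its 95% interval ran from -0.08 to 0.45.

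The other genes of these complexes also stayed below the threshold. Of 10 tested coactivator genes 9 were on the higher side (47.1% of all genes tested), at a median log2 fold change of 0.16 against -0.01 over all genes, and 0 passed. The groups did not overlap for 3 of the 10, against 6.77% of all genes tested. Ep300, the acetyltransferase p300, had 14.3, 14.4 and 14.0 FPKM in Tshr+/+ and 16.9, 18.3 and 18.9 FPKM in Tshr-/-. Its groups did not overlap, and the log2 fold change was 0.32 ± 0.09 (SE; limma unadjusted p = 0.0127, adjusted p = 0.9997). Groups of the acetyltransferase gene Kat2b and of the coactivator gene Ncoa6 did not overlap either, and the differences in log2 were 0.20 ± 0.10 (SE) and 0.19 ± 0.10 (SE). The coactivator genes Ppargc1a and Ppargc1b were below the filter.

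Of the 8 corepressor complex genes 6 were above and 2 below 0, with a median of 0.07. Gps2, a small subunit of the complex and the most abundant gene of this list, was on the lower side, at -0.16 ± 0.10 (SE) in log2. Among 29 tested Mediator and Mediator kinase genes 15 were above and 14 below 0, with a median of 0.01. Med1 was the only 1 of the 29 without overlap between the groups, against 6.77% of all genes tested. Med26, a subunit that links Mediator to elongation factors, differed by -0.34 ± 0.20 (SE) in log2. Med30, the most abundant of them, differed by 0.06 ± 0.15 (SE).

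Klf9 had the largest fold change of the 9 tested members and one of the widest spreads. It encodes a zinc finger factor that thyroid hormone induces in many tissues, and glucocorticoids induce it too. Klf9 (ENSMUSG00000033863, chromosome 19, 23141226 to 23166911, plus strand) had 6.96, 6.51 and 3.60 FPKM in Tshr+/+ and 9.28, 5.29 and 9.28 FPKM in Tshr-/-. Mutant libraries 1 and 3 lay above all wild-type values, and mutant library 2 lay below wild-type libraries 1 and 2. The log2 fold change was 0.42 ± 0.28 (SE) with a 95% interval from -0.24 to 1.09 (limma unadjusted p = 0.172, adjusted p = 0.9997). The interval includes both no change and a 2.12-fold higher level on the log2(FPKM + 1) scale. Within numbers 1, 2 and 3 the difference was 0.37, -0.26 and 1.16. With 1 library left out the log2 fold change ran from 0.17 without Tshr+/+ 3 to 0.66 without the library labelled Tshr-/- 2, and without both libraries numbered 3 it was 0.056.

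The other hormone response genes had no member past the threshold. Of 10 listed, 5 passed the filter, Klf9 among them, of which 4 were above 0 and 1 below. Cpt1a, the carnitine transferase that admits fatty acids to mitochondria, had 31.2, 17.6 and 30.1 FPKM in Tshr+/+ and 32.1, 26.7 and 40.2 FPKM in Tshr-/-. Its log2 fold change was 0.34 ± 0.25 (SE), and that of the mitochondrial glycerol phosphate dehydrogenase gene Gpd2 was 0.03 ± 0.11 (SE). Hr and Thrsp, classic direct targets in brain and liver, were below the filter, at no more than 0.433 and 0.295 FPKM in any library.

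Of 8 glucocorticoid response genes listed for comparison with Klf9, 5 were above and 3 below 0, with a median of 0.03. Fkbp5, a glucocorticoid-induced chaperone gene, had 14.8, 5.50 and 8.16 FPKM in Tshr+/+ and 15.4, 8.33 and 25.8 FPKM in Tshr-/-. Like Klf9, it was low in mutant library 2 and high in mutant libraries 1 and 3. In wild type, Fkbp5 was lowest in library 2 and Klf9 in library 3. The list was divided: Sgk1 and Zbtb16 were also lowest in mutant library 2, while Tsc22d3, Per1, Nfkbia and Cebpd were highest there. The part of these genes in the Klf9 values was not tested. Sgk1, a kinase gene induced by the same hormones, differed by -0.14 ± 0.16 (SE) in log2, and Dusp1, a phosphatase gene and the most abundant of the list, by 0.09 ± 0.28 (SE).

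Slco4a1 was the most variable tested member, and its values followed the number of the library rather than the genotype. SLCO4A1 is an organic anion transporter that carries thyroid hormones. Slco4a1 (ENSMUSG00000038963, chromosome 2, 180456245 to 180474867, plus strand) had 29.2, 36.0 and 8.15 FPKM in Tshr+/+ and 26.5, 31.2 and 13.8 FPKM in Tshr-/-. The library numbered 3 was lowest in both genotypes, and the other 4 libraries were at 26.5 FPKM or more. The coefficient of variation over the 6 libraries was 44.8%, against a median of 15.9% over all genes tested. The log2 fold change was 0.12 ± 0.55 (SE), with a 95% interval from -1.20 to 1.43 (limma adjusted p = 0.9997). Without both libraries numbered 3 the direction turned to -0.17, and without Tshr+/+ 3 alone to -0.51. Without the library labelled Tshr-/- 2 it was -0.11. Neither passed the threshold, nor did any other setting for this gene.

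The summed level of 7 neutrophil markers was lowest in the libraries numbered 3, but single markers differed from the sum, most of which S100a8 and S100a9 make up. It was 80547 FPKM in Tshr+/+ 3 and 66256 FPKM in the library labelled Tshr-/- 3, against 85021 to 102484 FPKM in the other 4 libraries. S100a9 and Mmp8 were lowest in the library numbered 3 of each genotype, while Cxcr2, Csf3r and Ly6g were highest in Tshr+/+ 3 among the wild-type libraries. The summed level of the 6 myeloid markers was 1750 and 1518 FPKM in the libraries numbered 3, against 1704 to 2036 FPKM in the others. For the 6 monocyte markers the sum was 530 and 551 FPKM in the libraries numbered 3, against 460 to 600 FPKM in the others. Of these, Ccr2, Csf1r, F13a1, Cx3cr1 and Irf8 were highest in the library numbered 3 of each genotype, while Ly6c2 was not. None of these markers was at 0 in all libraries, and their part in the Slco4a1 values was not tested.

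Slc16a10, the gene of the monocarboxylate transporter MCT10, which carries thyroid hormone and aromatic amino acids, went the opposite way between libraries. Slc16a10 (ENSMUSG00000019838, chromosome 10, 40033532 to 40142258, minus strand) had 3.83, 3.05 and 5.0 FPKM in Tshr+/+ and 4.26, 3.01 and 6.62 FPKM in Tshr-/-. In both genotypes the library numbered 3 was highest and the library numbered 2 lowest, and the groups overlapped. The log2 fold change was 0.15 ± 0.26 (SE) with a 95% interval from -0.46 to 0.76 (limma adjusted p = 0.9997), and it turned to -0.093 without the library labelled Tshr-/- 3. The ratio of Slco4a1 to Slc16a10 was 7.64, 11.8 and 1.63 in Tshr+/+ and 6.22, 10.4 and 2.08 in Tshr-/-. By contrast with the receptor and coregulator pairs, this ratio spread over the same wide range in each genotype.

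**Figure D4:**
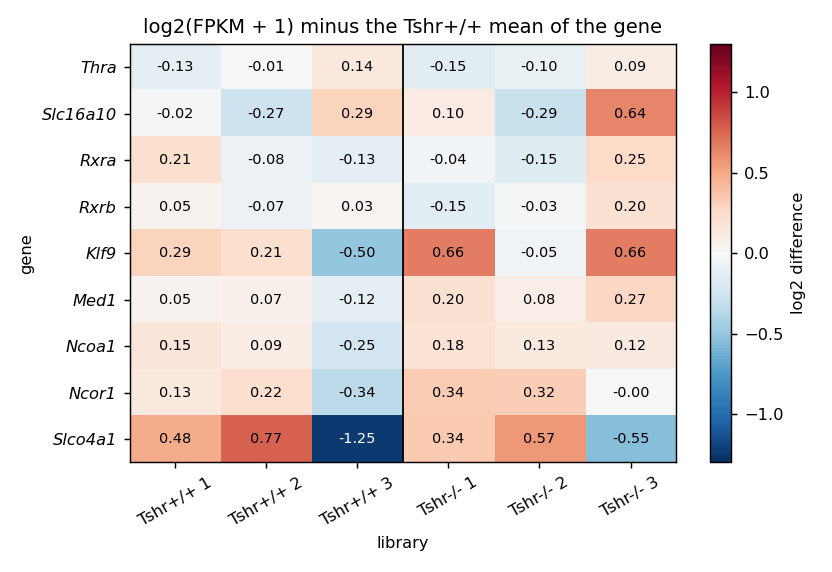
Difference of log2(FPKM + 1) from the Tshr+/+ mean of each gene, for 9 genes (rows) in 6 libraries (columns), with red for higher and blue for lower values. The column Tshr+/+ 3 is the lowest of the 6 for Ncor1, Ncoa1, Med1, Klf9 and Slco4a1, down to -1.25 for Slco4a1, while Thra and Slc16a10 are highest of their genotype in both libraries numbered 3.

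The rest of the transport machinery was uneven. Of 14 listed transport genes 7 passed the filter, 3 above and 4 below 0, with a median log2 fold change of -0.06, and 5 were listed at 0 in all libraries, among them Slco1c1, the transporter of the blood-brain barrier. Slc3a2, the heavy chain shared by amino acid carriers and the most abundant of the list, had 120, 104 and 40.2 FPKM in Tshr+/+ and 77.6, 71.1 and 48.2 FPKM in Tshr-/-, with its lowest values in the libraries numbered 3, like Slco4a1. Its log2 fold change was -0.30 ± 0.41 (SE). Slco3a1, another organic anion transporter gene, had 3.19, 3.14 and 3.41 FPKM in Tshr+/+ and 4.89, 4.70 and 3.43 FPKM in Tshr-/-. Its groups did not overlap, by a margin of 3.41 against 3.43 FPKM, and its log2 fold change of 0.32 ± 0.14 (SE) did not pass (limma unadjusted p = 0.0564, adjusted p = 0.9997).

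**Figure D5:**
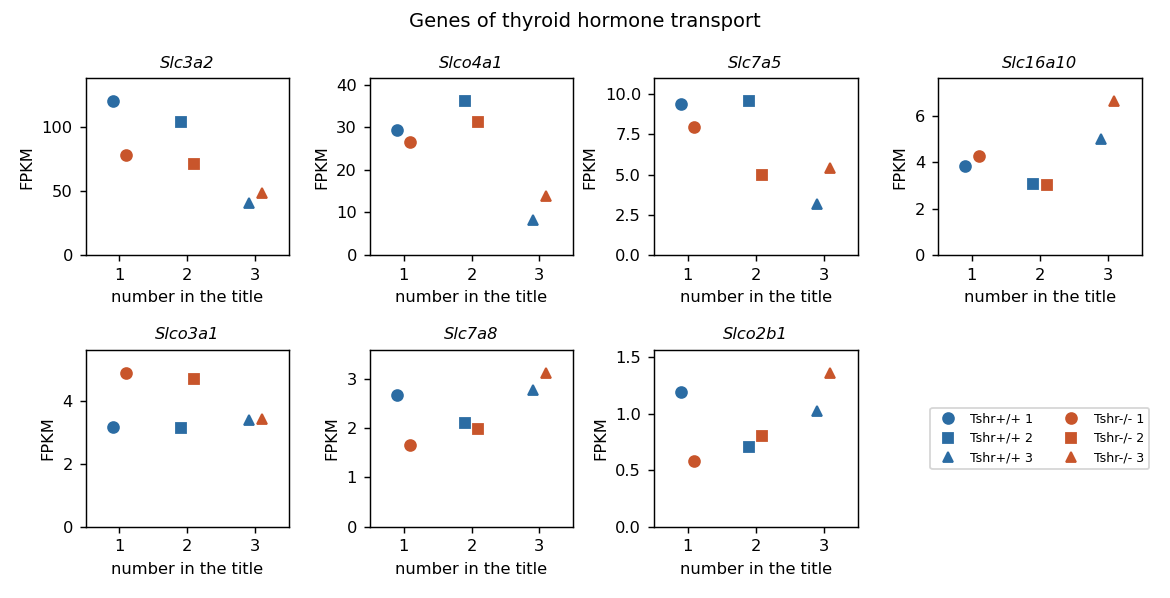
FPKM of the 7 tested transport genes by the number in the library title, with Tshr+/+ in blue and Tshr-/- in orange; each axis starts at 0. Slco4a1 and Slc3a2 are lowest at number 3 in both genotypes, and Slc16a10 is highest there.

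Of the enzymes that activate or break down the hormone, only the gene of the activating deiodinase was tested. Dio2, which converts thyroxine to the active hormone, had 2.06, 2.52 and 1.44 FPKM in Tshr+/+ and 2.17, 2.06 and 2.09 FPKM in Tshr-/-, a log2 fold change of 0.06 ± 0.16 (SE). Dio3, the inactivating deiodinase, and Crym, an intracellular hormone-binding protein, were listed at 0 in all 6 libraries. Dio1 was above 0 in 1 library only, at 0.025 FPKM.

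The genes with the most similar patterns to Thra and Klf9 were found by the Pearson correlation of log2(FPKM + 1) over the 6 libraries, among 5589 protein-coding genes with a mean of at least 5 FPKM. For Thra these were Reep4, an endoplasmic reticulum protein of mitosis (r = 0.990), Atp5g3, a subunit of the ATP synthase (r = 0.988), and Uqcrc1, a subunit of respiratory complex III (r = 0.985). For Klf9 they were Sec31a, a coat protein of secretory vesicles (r = 0.981), Macf1, a cytoskeletal linker (r = 0.977), and Impad1, a phosphatase of the Golgi (r = 0.976). These are descriptions over 6 libraries, picked as the closest of many genes, and all genes of a library share its depth and scaling.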

How the data were processed

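One table of FPKM values, deposited by the authors, held 54532 genes and the 6 libraries. Per the submitters' processing notes the builds were GRCm38 and mm10; the aligner, the counter and the strand setting remain unstated in the labels and headers. Columns headed WT and HO were matched to the titles by genotype and number, with HO read as homozygous mutant. Libraries came from total RNA with a SMARTer mRNA kit, per the labels' protocols. FPKM times gene length gave whole fragments for 100% of values of up to 1000 fragments within 0.01, so fragments were computed; depth was 14698126 to 17976477. The deposited FPKM already carry a scaling between libraries: the size behind them was 0.939 to 1.12 times the sum of fragments. It was 1.08 times in Tshr+/+ 3 and 1.12 times in the library labelled Tshr-/- 3, against 0.939 to 0.994 in the others. The part of this scaling in the values of the libraries numbered 3 was not tested. Gene positions equalled GENCODE M21 for 53585 of 54495 matched identifiers; Rxrb and Klf9 differed, and the deposited ones are printed.

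Values were put on the scale log2(FPKM + 1), which understates the change of low genes. Genes that reached 1 FPKM in 3 or more libraries were compared between genotypes with limma 3.58.1 in R 4.3.3 (empirical Bayes with a trend, two-sided, Benjamini-Hochberg over 10913 genes, threshold 0.05). The fit was tested on simulated data. Tshr and Thrb, both below the filter, had an exact permutation test, and other genes below the filter had no test. Intervals of fragments are exact at 95% for counting error only. The limma p-values set the difference between groups against the spread between libraries within them, moderated over all genes tested. They take the libraries as independent.

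Libraries of the same number deviated together (correlations over genes of 0.24, 0.26 and 0.47 for numbers 1, 2 and 3), and Tshr+/+ 2 with the library labelled Tshr-/- 1, of different number, had 0.34. The number was used as a block in an alternative fit only. These correlations cannot show that the libraries are paired. Deviations from the mean of a genotype sum to 0, so a number that stands apart in both genotypes pushes the other numbers to correlate too. The labels name no pairing. The groups were compared without the block, and with it as an alternative.

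The members and all gene lists were chosen with earlier results of these data known. The text names the members, genes that overlap them, from each pathway list the genes past the threshold or else the 2 of lowest p, plus the one of highest level, and the 3 genes most like Thra and Klf9. Itgam and Ddx3y stand for their marker lists. Other genes (marker genes of neutrophil, monocyte, macrophage, B and T cell lists, Xist, Tsc22d3, Zbtb16, Per1, Nfkbia, Cebpd, Ncoa6, Hr, Thrsp, Gpd2, Rxrg, Slco1c1, Dio1, Dio3, Crym, Ppargc1a, Ppargc1b, Pax8, Nr1h2, Nr1h3, Nr4a2 and Rara) were named after their values were seen. Alternatives were other pseudocounts, filters, scalings, variance settings, voom on genes that reached 10 fragments in 3 or more libraries, and libraries left out. Protein sequences were not used here, and some genes of the lists are not reported here.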

Additional observations from a re-analysis of the deposited data

How the results depend on the processing

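Under 19 alternatives 0 of the 9 tested members were called; the smallest limma adjusted p among them was 0.201, for Klf9 with array weights. Thra and Slc16a10 have 18, since a filter at a mean of 5 FPKM removes them. Klf9, Med1 and Ncoa1 stayed above 0 in each. Over all genes tested, array weights called 24 genes, leaving out both libraries numbered 3 called 18, and leaving out 1 library called 0 to 2; the cause was not tested. The members' median log2 fold change was 0.02 to 0.21 over the alternatives, the same range as with 1 library left out. The replicate block called 0 genes and left the median at 0.14 (smallest adjusted p among members 0.834); it changed no call.

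Directions turned as follows, none past the threshold. With array weights Rxra had -0.014, Rxrb -0.062 and Slco4a1 -0.31. Without both libraries numbered 3 Rxra had -0.16, Rxrb -0.074 and Slco4a1 -0.17. Without the libraries labelled Tshr-/- 1 and 2, Thra had 0.094, Ncor1 -0.00095 and Slco4a1 -0.55. With 1 library left out, Thra ran from -0.12 to 0.016, Rxra from -0.095 to 0.13, Rxrb from -0.088 to 0.084, Slc16a10 from -0.093 to 0.37 and Slco4a1 from -0.51 to 0.50. Depth limits Thrb, with at most 6 fragments in a library.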

Other observations

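Of the other receptors that pair with RXR proteins 8 were tested, and 0 had a log2 fold change above 0, against 47.1% of all genes tested. None passed the threshold or had groups without overlap. The median was -0.15 against -0.01 over all genes tested, and the values nearest 0 were those of Nr1h3 and Nr4a2, each at -0.02 with an SE of 0.17 and 0.39. Nr4a1, an immediate early nuclear receptor gene and the most abundant of the list, had 380, 488 and 270 FPKM in Tshr+/+ and 340, 326 and 276 FPKM in Tshr-/-. Pparg and Ppard, receptors for fatty acids, differed by -0.36 ± 0.21 (SE) and -0.29 ± 0.22 (SE) in log2. Nr1h2, the oxysterol receptor LXR beta, had 149, 148 and 85.9 FPKM in Tshr+/+ and 107, 119 and 97.6 FPKM in Tshr-/-, lowest in the libraries numbered 3 in both genotypes. Rara, a retinoic acid receptor, had 17.7 to 25.4 FPKM over the 6 libraries.

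Of 17 KLF family genes 11 were tested, 5 above and 6 below 0 with a median of -0.03. Klf2, a factor of leukocyte quiescence, was the most abundant with 368, 521 and 489 FPKM in Tshr+/+ and 389, 701 and 419 FPKM in Tshr-/-. Klf3, a repressor of the family, differed by -0.35 ± 0.21 (SE) in log2 and was lowest in the libraries numbered 3.

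Of 8 genes of the thyroid gland 0 passed the filter. Tg, the gene of thyroglobulin, had 0.466 to 1.24 FPKM, and Pax8, a thyroid transcription factor, 0.213 to 0.408 FPKM.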
